A study of Mus musculus with 12 samples.

Results

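Trimethylation of lysine 9 of histone H3 (H3K9me3) was compared between neural progenitors that lack Setdb1 and wild-type (WT) progenitors. The comparison used the 6 H3K9me3 libraries of the 12 libraries in the series, 3 from knockout (KO) and 3 from WT animals. Its measurements are 47949 regions on chromosomes 1 to 19, of 50654 regions that the authors listed in 1 table of KO against WT. The X and Y chromosomes were left out because all 3 KO animals were male, whereas 2 of the 3 WT animals were female and 1 was male. The KO group carried the genotype Nestin-KO of Setdb1, a name that refers to the Nestin gene of neural progenitors, and the WT group was labelled only as WT. Both groups were C57BL/6 mice of embryonic age E15.5, and both were sampled as neurosphere cultures from the ganglionic eminence with 100000 nuclei per library. The labels do not give the Cre line, the floxed allele, the time in culture or the share of cells in which the gene was deleted. Replicates are separate animals. A number opens each sample title: 2 KO animals had the same one, 2 WT animals had another, and the remaining KO and WT animals shared a further one.

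SETDB1 is a methyltransferase that places H3K9me3, mostly on chromatin away from the centromeres. It is brought to DNA by the corepressor KAP1 and by KRAB zinc finger proteins, which recognise transposable elements and the genes that encode such zinc finger proteins. H3K9me3 packs chromatin into a silent state, and in neural cells SETDB1 is known for silencing endogenous retroviruses, germline genes and the clustered protocadherins. Other enzymes of the same family, SUV39H1 and SUV39H2, place the mark at pericentromeric repeats.

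The promoters that lay inside called regions ranged widely in CpG content, and 7 of them are printed here as examples of that range. The bases are the 250 before the gene start on the gene's own strand, from RefSeq (GRCm38.p6, the build called mm10 in the labels), with the CpG dinucleotide (CG, which reads the same on both strands) in capitals. They were chosen after the values were seen. The lower examples are not typical in CpG content. The 119 genes with a promoter inside a called lower region had a median of 5 CpG, and 23.5% held 10 or more. The first 4 lay in regions called lower in KO by limma, none of which passed after the median-ratio scaling described below. These are Dazl, which binds RNA in germ cells (chr17:50293621-50293870, minus strand, 20 CpG), and Zfp872, a zinc finger gene (chr9:22187916-22188165, plus strand, 15 CpG). The others are Slc38a4, an imprinted amino acid transporter (chr15:97055957-97056206, minus strand, 3 CpG), and Vmn2r29, a vomeronasal receptor (chr7:7278290-7278539, minus strand, 17 CpG).
Dazl: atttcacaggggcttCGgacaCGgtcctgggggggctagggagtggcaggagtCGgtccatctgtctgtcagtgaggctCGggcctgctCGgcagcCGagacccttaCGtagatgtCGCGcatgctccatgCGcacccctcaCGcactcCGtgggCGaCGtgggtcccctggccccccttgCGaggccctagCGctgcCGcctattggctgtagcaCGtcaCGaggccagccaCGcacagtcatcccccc
Zfp872: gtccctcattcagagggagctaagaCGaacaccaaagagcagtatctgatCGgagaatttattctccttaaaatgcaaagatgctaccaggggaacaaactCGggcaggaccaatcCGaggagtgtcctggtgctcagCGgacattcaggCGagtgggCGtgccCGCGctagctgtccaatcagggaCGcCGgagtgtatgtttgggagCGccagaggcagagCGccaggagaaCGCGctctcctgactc
Slc38a4: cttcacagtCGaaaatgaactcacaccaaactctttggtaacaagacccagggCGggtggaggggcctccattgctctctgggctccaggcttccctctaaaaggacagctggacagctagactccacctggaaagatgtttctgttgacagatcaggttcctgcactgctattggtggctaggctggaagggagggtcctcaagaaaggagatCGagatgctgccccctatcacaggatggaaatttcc
Vmn2r29: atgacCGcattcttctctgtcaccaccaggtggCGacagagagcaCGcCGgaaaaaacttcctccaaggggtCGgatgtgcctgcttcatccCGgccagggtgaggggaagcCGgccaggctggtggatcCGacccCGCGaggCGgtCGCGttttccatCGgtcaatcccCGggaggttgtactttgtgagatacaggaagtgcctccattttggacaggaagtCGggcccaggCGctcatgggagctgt
The next 3 lay in regions called higher, which passed under both scalings. They belong to Olfr620, an olfactory receptor (chr7:103612352-103612601, minus strand, 1 CpG), Vmn1r48, a vomeronasal receptor (chr6:90036842-90037091, minus strand, 2 CpG), and Cyp2c29, a cytochrome P450 of the liver (chr19:39286835-39287084, plus strand, 0 CpG).
Olfr620: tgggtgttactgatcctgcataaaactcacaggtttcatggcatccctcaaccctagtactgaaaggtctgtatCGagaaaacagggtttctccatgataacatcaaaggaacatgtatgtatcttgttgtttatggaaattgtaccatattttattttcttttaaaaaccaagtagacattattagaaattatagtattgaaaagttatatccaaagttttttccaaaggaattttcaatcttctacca
Vmn1r48: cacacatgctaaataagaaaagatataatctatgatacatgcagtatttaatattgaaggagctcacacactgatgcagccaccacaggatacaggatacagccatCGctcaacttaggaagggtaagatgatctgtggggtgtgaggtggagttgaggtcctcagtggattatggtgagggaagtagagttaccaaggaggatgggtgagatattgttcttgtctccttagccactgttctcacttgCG
Cyp2c29: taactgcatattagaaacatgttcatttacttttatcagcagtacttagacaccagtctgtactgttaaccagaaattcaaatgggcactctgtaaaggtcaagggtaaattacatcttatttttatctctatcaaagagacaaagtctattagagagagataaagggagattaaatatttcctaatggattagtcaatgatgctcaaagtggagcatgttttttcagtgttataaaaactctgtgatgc
The region over the Dazl promoter (chromosome 17, 50292901 to 50293900) had normalised values of 5.09, 12.6 and 20.2 in KO and 37.2, 54.1 and 66.0 in WT. The region over the Olfr620 promoter (chromosome 7, 103611001 to 103612900) had 91.7, 70.2 and 79.8 in KO and 16.0, 32.8 and 34.8 in WT. Both regions were chosen from the called ones, and the groups did not overlap in either.

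A normalised value is the authors' scaled number of reads of 1 library in 1 region, and the table joins the 3 values of a genotype in 1 cell. The animal behind each position is not named, so values are known by their place in the cell (the first, the second or the third value), and no value within a sex or a title number could be formed. Setdb1 itself overlapped 0 listed regions, so these libraries do not check its deletion. H3K27ac peaks of the series, from other animals, stood in for cell identity: a peak lay in or within 1 kb of Nes, Pax6 and Fabp7, markers of neural progenitors, in 6 of 6 libraries, of Vim in 5, of Sox2 in 4 and of Hes5 in 2. Of the ganglionic eminence markers, Dlx1 had one in 2 libraries, Gad1 in 1 and Dlx2 and Gsx2 in 0. Among markers of other cells, Olig2 had one in 4 libraries, Gfap in 2 and Pecam1 in 6, while Neurod6, Tbr1, Aif1, Cx3cr1 and Cdh5 had none. The part that other cells had in the H3K9me3 results was not tested.

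The KO values differed more among themselves than the WT values did. The median normalised value per region was 25.5, 28.8 and 48.8 in KO and 51.4, 55.8 and 50.02 in WT. Against the WT mean, the median region lay at a log2 difference of -1.40, -1.09 and -0.36 in the first, the second and the third KO value. The third KO value thus lay between the other KO values and WT, and its log2 values across regions correlated with WT at a mean Pearson r of 0.52, against 0.16 and 0.35 for the first and second (a description over 47949 regions of shared libraries). Whether its label is right, or whether fewer of its cells had lost Setdb1, was not tested, and every KO mean below includes it. The median SD of log2 values between libraries was 0.60 in KO and 0.244 in WT. The first KO value was also the shallowest, with a median of 10 reads per region against 68 and 58 at the other KO positions and 30, 69 and 70 in WT, and it was 0 in 2688 regions. In the plot of levels by annotation class, the median rises from the first to the second to the third KO value in 4 of 8 classes. These are gene bodies, gene deserts, other intergenic regions and subtelomeres, and in the other 4 the first KO value lies above the second.

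**Figure D1:**
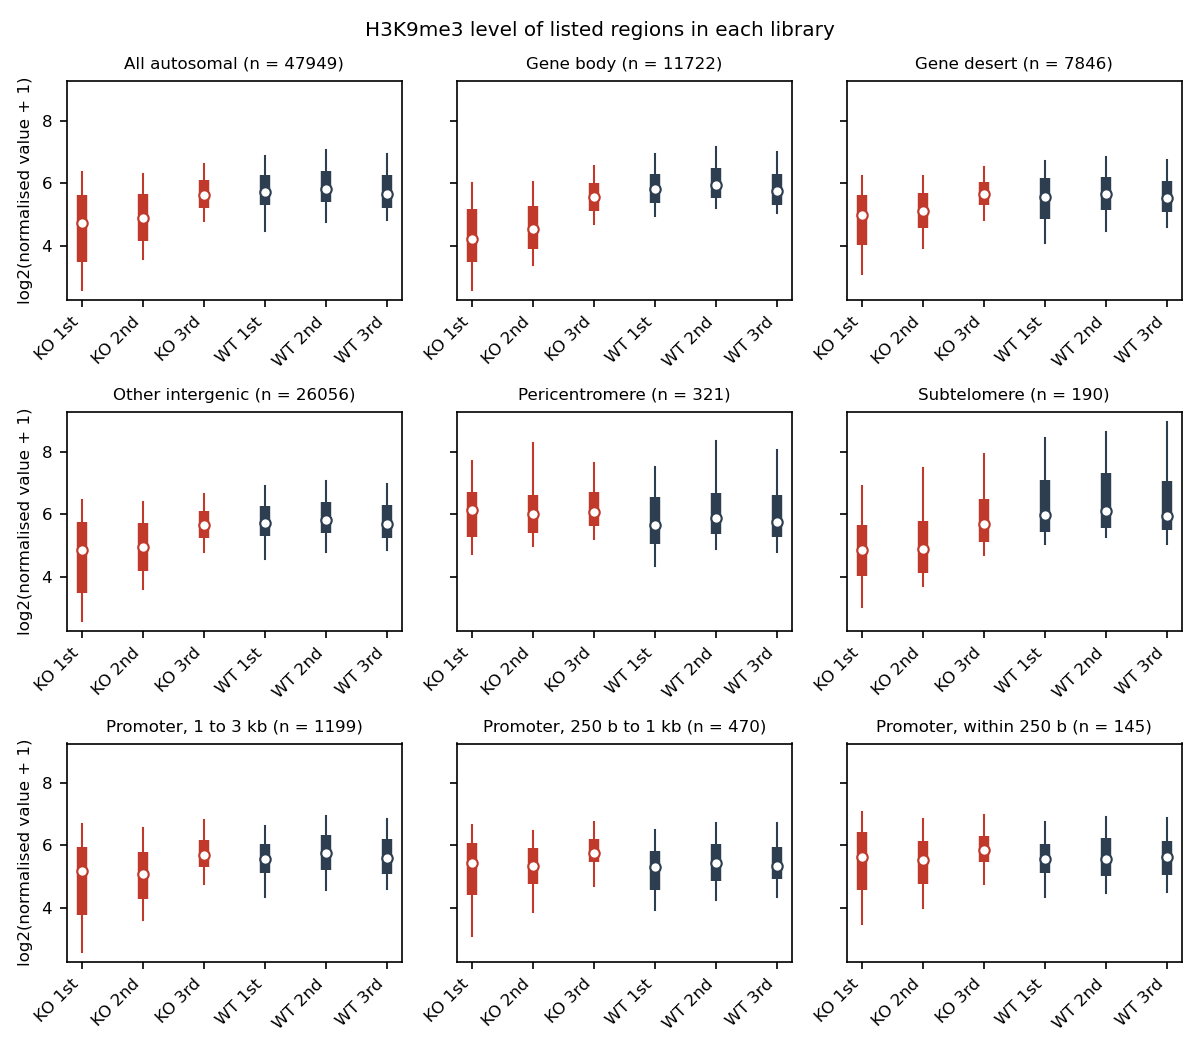
H3K9me3 level of listed autosomal regions in each library, by annotation class. The y axis is log2 of the normalised value plus 1; the white point is the median region, the thick bar spans the quartiles and the thin line the outer deciles. The first and second KO values lie below the WT values in gene bodies and subtelomeres, the third KO value lies near WT, and all 6 medians lie close together in the promoter classes within 1 kb.

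Most listed regions were lower in KO, and those that passed the test with replicates were mostly lower too. limma on log2(value + 1) with Benjamini-Hochberg adjustment over every listed region called 7297 autosomal regions lower, 15.2% of those tested, and 622 higher, 1.3%. The lower regions covered 19.4 Mb with a median length of 2000 bases, and their median signal was 46.5 normalised reads per kb in WT and 15.4 in KO (median log2 fold change -1.68). The higher regions covered 1.34 Mb, with 18.1 per kb in WT and 43.0 in KO (median log2 fold change 1.21). The 3 KO values all lay below the 3 WT values in 26304 regions (54.9%) and all above them in 9915 (20.7%). Since the authors had listed regions for a difference between these libraries, such shares describe the list and not the genome. The single regions named in this report were chosen by their test results, so groups that stand apart in them add no support. In a culture of many cells, a lower signal in every cell and a loss in part of the cells cannot be told apart.

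These counts stand close to the threshold. The smallest adjusted p that limma gave was 0.0471, and each named region that passed had an adjusted p of 0.0471 to 0.0499. Leaving out any listed value except the third KO value left 0 regions called lower by limma and at most 2 higher, with 11823 to 19894 lower and 3545 to 4739 higher at an unadjusted p of 0.05. Without the third KO value, 29805 regions were called lower (62.2%) and 2944 higher (6.14%), and these included all 7297 and all 622. A median-ratio scaling, under which the median listed region is taken as unchanged, moved the median log2 fold change from -1.05 to -0.24 and called 3001 lower (6.26%) and 13679 higher (28.5%). Of the lower calls 2900 were shared, 39.7% of those under the authors' scaling and 96.6% of the others, and all 622 higher calls were shared. limma-voom on the reads recovered from the steps in the values called 28013 lower (58.4%) and 6913 higher (14.4%), among them all 7297 lower and 616 of the 622 higher regions. No called region had the opposite call in these 3 fits. Without the second KO value, the deepest, limma-voom called 6622 lower and 8581 higher, so its excess of lower calls depended on that library.

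A larger share of the listed regions inside genes passed as lower than of those in gene deserts. Of 11722 gene-body regions, which begin 3 kb past the gene start, 20.1% were called lower and 0.776% higher, with a median log2 fold change of -1.34. Of 7846 regions in gene deserts 9.83% were lower and 1.95% higher (median -0.81), and of 26056 other intergenic regions 15.0% were lower and 1.23% higher (median -1.02). Median-ratio scaling took the gene-desert median to 0.00 and left that of gene bodies at -0.53. Under it the calls were mostly higher, 9.56% lower and 16.5% higher in gene bodies against 2.40% and 36.8% in gene deserts. Without the third KO value the shares called lower were 77.1% in gene bodies, 52.3% in gene deserts and 60.2% in other intergenic regions, in the same order.

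The order of the classes does not depend on how libraries were scaled when each class is set against all autosomal regions of its own library. Gene-body signal per kb stood at log2 ratios of -0.33, -0.30 and -0.09 in KO and 0.07, 0.09 and 0.06 in WT. The groups did not overlap, with a difference of the means of -0.316 (KO -0.243 ± 0.13, WT 0.0729 ± 0.0149, SD, n = 3; exact permutation test, two-sided, p = 0.1, the smallest that 3 against 3 can give). Gene deserts stood at -0.05, -0.01 and -0.08 in KO and -0.20, -0.24 and -0.23 in WT, a difference of 0.183 with no overlap (exact p = 0.1). Relative to all listed autosomal regions of the same library, KO signal per kb was thus lower in gene bodies and higher in gene deserts. Under the authors' scaling the gene-desert signal itself was lower in KO (mean 29.3 per kb, against 38.8 in WT). The third KO value stood nearest to WT in gene bodies. The 18 regions with a WT mean above 10000 were left out of these sums.

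Chromosome ends and centromeres moved differently. Of the 8 annotation classes, subtelomeric regions had the highest share called lower, 30.0% of 190, with 0 called higher by limma (11 at an unadjusted p of 0.05, and 11 by limma-voom against 148 lower), a median log2 fold change of -1.18 and within-library ratios of 1.06, 1.29 and 1.08 in KO against 1.47, 1.67 and 1.57 in WT, which did not overlap. Median-ratio scaling called 21 of them lower and 25 higher. Of 321 pericentromeric regions 4 were called lower and 5 higher by limma (42 and 59 at an unadjusted p of 0.05), 53 and 80 by limma-voom, and 0 and 180 by limma after median-ratio scaling. The median log2 fold change was 0.53, and their within-library ratios (1.51, 1.98 and 1.15 in KO, 0.94, 1.25 and 1.26 in WT) overlapped (exact p = 0.3).

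Besides pericentromeric regions, the 2 classes within 1 kb of a gene start were those in which the median region was not lower. Within 250 bases of a start, 145 regions had a median log2 fold change of 0.61, with 14 called lower and 3 higher. From there to 1 kb, 470 regions had a median of 0.68, with 38 lower and 14 higher. From 1 to 3 kb, 1199 regions had a median of -0.79, which median-ratio scaling moved to 0.02, with 140 lower and 35 higher. The positive medians within 1 kb rest on chromosome 7: there the 35 and 134 regions had medians of 0.75 and 0.79, whereas on the other autosomes the medians were -0.56 and -0.44. By limma more regions passed as lower than as higher in each of these 3 classes, and this depended on the fit. limma-voom called 47 lower and 49 higher within 250 bases, 149 and 147 from there to 1 kb, and 559 and 278 from 1 to 3 kb, and median-ratio scaling called 4 and 80, 11 and 281, and 56 and 526. Relative to all listed autosomal regions of the same library, all 3 classes stood higher in KO, by 0.477, 0.455 and 0.377, with no overlap. Under the authors' scaling their summed signal itself had lower means in KO. These were 64.3, 36.6 and 40.25 per kb, against 70.6, 40.7 and 46.7 in WT. In the distance bins, 22.1% of regions 10 to 50 kb past the start were called lower, against 9.72% of those within 250 bases, as the plot of calls by length and position shows.

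**Figure D2:**
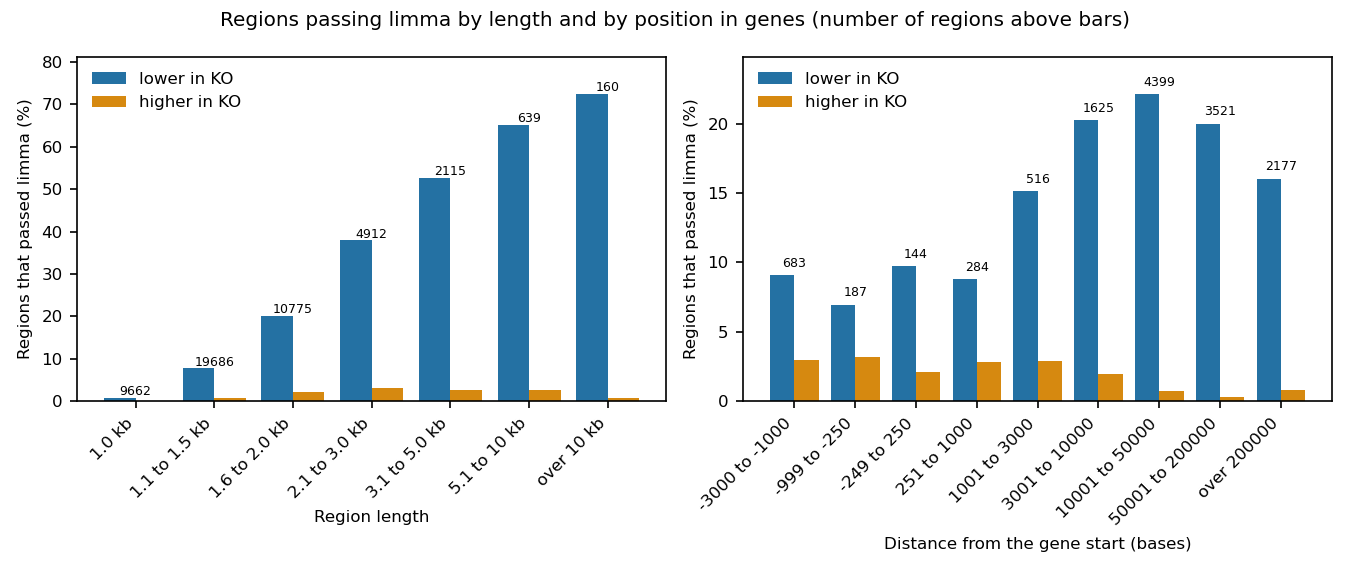
Share of listed autosomal regions that passed limma as lower or higher in KO, by region length (left) and by distance from the gene start in bases for gene-annotated regions (right). Numbers above the bars count the regions in the bin; the share called lower climbs from 0.776% of regions of 1.0 kb to 72.5% of regions over 10 kb, and the share called higher stays at or below 3.21% in every bin.

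The share of regions called lower grew with region length. Of 9662 regions of 1.0 kb, 75 were called lower and 13 higher, of 4912 regions of 2.1 to 3.0 kb 1862 and 156, and of 160 regions over 10 kb 116 and 1. Longer regions hold more reads, so the same fold change passes more easily, and the fold changes vary less with length than the calls do. The median log2 fold change was -0.93 at 1.0 kb, -1.18 at 2.1 to 3.0 kb, -1.14 at 5.1 to 10 kb and -1.65 over 10 kb. Within libraries, regions of 1.0 kb stood at -0.06, -0.12 and -0.06 in KO and -0.24, -0.30 and -0.35 in WT, a difference of 0.219 with no overlap. Regions over 10 kb stood at 0.51, 0.24 and 0.42 in KO and 0.65, 0.75 and 0.84 in WT, a difference of -0.353 with no overlap (exact p = 0.1 for both). The contrast between classes held at like length: 55.1% of gene-body regions of 2 kb or longer were called lower, against 34.0% in gene deserts, and below 2 kb the shares were 11.96% and 5.49%.

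The longest called region of all lay between genes on chromosome 12 (20994201 to 21042600). It had 609, 945 and 1593 in KO and 2654, 3830 and 3336 in WT, a log2 fold change of -1.74 (SE 0.36), and did not pass under median-ratio scaling (-0.90, adjusted p = 0.0722 by limma). The longest subtelomeric one (chromosome 9, 124318501 to 124331500) had 122, 81.1 and 285 in KO and 613, 871 and 898 in WT (-2.46, SE 0.43). The longest region called higher, also between genes (chromosome 14, 43546601 to 43558200), had 830, 634 and 697 in KO and 413, 372 and 410 in WT (0.85, SE 0.22). In each of these regions the groups stood apart, and in both lower ones the third KO value was the highest of the 3.

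The WT level of a listed region and its change are bound together by how regions came to be listed. The higher of the 2 group means was at least 26.6 per kb, with a first percentile of 33.5, so a region low in WT was listed only if it was high in KO. The quintile of regions with the lowest WT signal (6.39 to 26.99 per kb) held 0 of the lower calls (0 at an unadjusted p of 0.05 and 0 by limma-voom) and 592 of the 622 higher calls, and the quintile with the highest (from 47.4 per kb) held 3219 lower calls and 1 higher call. Sorted by the mean of all 6 values instead, the quintiles from lowest to highest held 1452, 1604, 1704, 1625 and 912 lower calls and 172, 132, 118, 130 and 70 higher calls. The median log2 fold change was -0.53 in the highest of these quintiles and -1.58 in the lowest. The listing binds this sorting too. The lowest quintile ended at 28.05 per kb, below the first percentile of the higher group mean, so most of its regions had to differ between the groups. No test was made across these quintiles, because the listing used the same values.

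Chromosomes differed in the balance of the directions. On chromosome 10, 493 of 1995 regions were called lower and 0 higher, and on chromosome 18, 360 of 1373 and 0. At an unadjusted p of 0.05 limma gave 13 and 19 higher regions on these chromosomes, and limma-voom called 15 and 17. On chromosome 7, 314 of 5484 were lower and 155 higher, which is 155 of the 622 higher calls, and it was the only autosome with a positive median log2 fold change under the authors' scaling (0.65), while those of chromosomes 10 and 18 were both -1.46. Median-ratio scaling took the median of chromosome 12 from -0.81 to 0.00 and reversed no other autosome. Chromosome 7 carries large clusters of olfactory and vomeronasal receptor genes. Leaving out the third KO value, 25.9% of its regions were called lower and 16.7% higher, against 92.4% and 0.1% on chromosome 10.

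**Figure D3:**
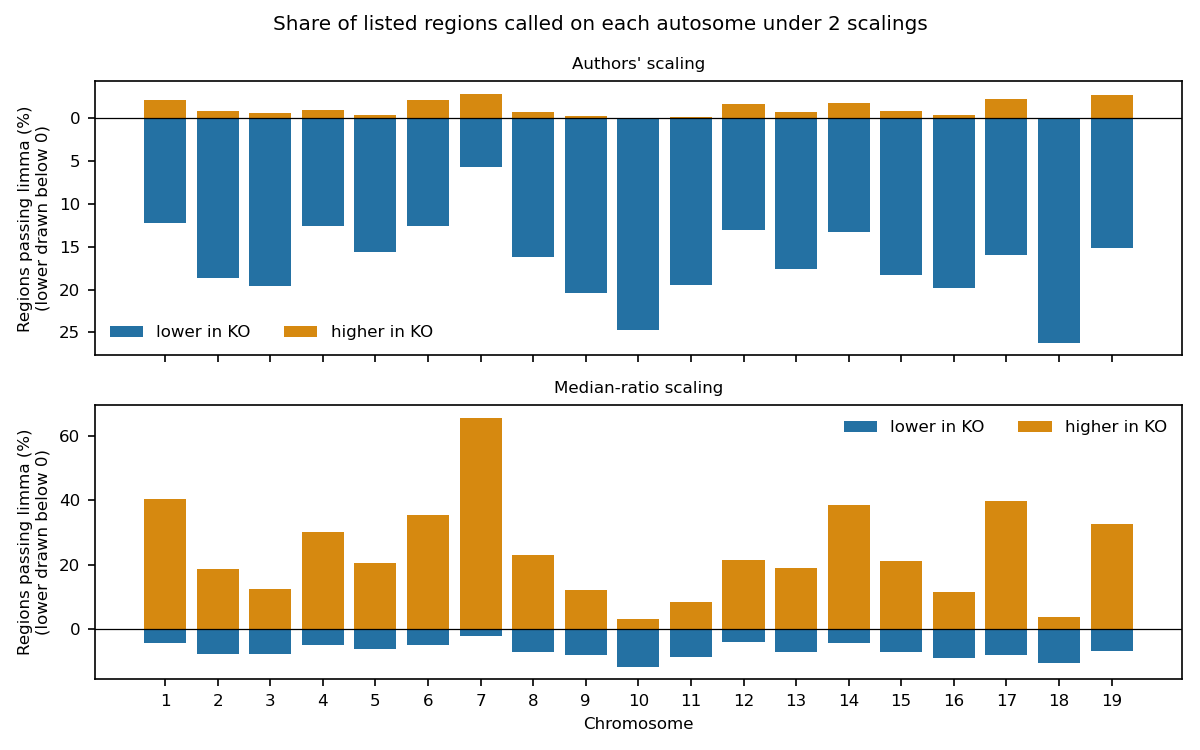
Share of listed regions on each autosome that passed limma as higher (above 0) or lower (below 0) in KO, with the authors' scaling (top) and after median-ratio scaling (bottom). Chromosome 7 has the lowest share called lower under both scalings and the highest share called higher, and chromosomes 10 and 18 have the 2 lowest shares called higher under both.

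Regions next to each other mostly changed in the same direction, at any spacing. Of 21081 pairs of adjacent regions at most 10 kb apart, 91.6% had fold changes of the same sign, and of 1079 such pairs in which both were called, 1078 were called in the same direction. Pairs 10 to 100 kb apart had the same sign in 89.5%, and pairs farther apart in 92.8%. The balance of signs differed with spacing, so these shares cannot be compared directly. Of the pairs up to 10 kb apart, 11313 were both below 0, 8000 both above and 1768 mixed. Among the 7234 pairs over 100 kb apart the counts were 6567, 143 and 524. Regions are not independent of one another, and their counts are not counts of separate events. Mixed calls within a gene were found in Cntnap2 and Lingo2, long neuronal genes for a contactin-associated protein and a leucine-rich repeat membrane protein. Cntnap2 had 2 lower regions and 1 higher of 23, and Lingo2 had 1 and 1 of 8.

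The lower calls reached 1705 genes through 2548 gene-annotated regions, and the higher calls 112 genes through 143. Genes with a called lower region had a median length of 91.5 kb, those with a called higher region 16.0 kb, and all 5546 genes with a listed region 50.2 kb. The 188 genes with 3 or more lower regions had a median of 227 kb. Long genes offer more places for a region, and the gene lengths are given for that reason.

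The genes with the most lower regions were mostly long genes with many listed regions. Ajap1, a protein of adherens junctions, had 11 of its 13 regions called lower. Its leading region (chromosome 4, 153387901 to 153390200, gene body) had 22.9, 36.6 and 33.6 in KO and 90.4, 135 and 134 in WT. No KO value reached the lowest WT value, and the log2 fold change was -1.92 (SE 0.32). Grip1, a scaffold that binds AMPA-type glutamate receptors, had 11 of 30 regions called lower. Its leading region (chromosome 10, 119698401 to 119702200, gene body) had 45.9, 59.7 and 77.3 in KO and 177, 196 and 166 in WT (-1.57, SE 0.28). The groups stood apart, but this region did not pass under median-ratio scaling (adjusted p = 0.062 by limma), where its fold change was -0.75. Anks1b, a postsynaptic scaffold, had 10 of 30 regions called lower.

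Grm5, which encodes the metabotropic glutamate receptor mGluR5, had 9 of 19 regions called lower. Its leading region (chromosome 7, 87892201 to 87894600, gene body) had 15.3, 20.9 and 65.6 in KO and 105, 193 and 225 in WT. The third KO value was far above the other 2 there, but still below every WT value, and the log2 fold change was -2.54 (SE 0.54). Other genes with many lower regions were Mir680-2 (8 of 10), Ube2e2, a ubiquitin-conjugating enzyme (7 of 14), Nebl, an actin-binding protein (7 of 14), and Dip2c (6 of 11). Mir680-2 is named as a microRNA, but its leading region was annotated as gene body 67573 bases from the start, so that gene label is uncertain. The leading regions of Mir680-2, Nebl and Dip2c passed under both scalings, and that of Ube2e2 did not pass under median-ratio scaling (adjusted p = 0.073 by limma).

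Zinc finger genes, many of which encode the KRAB repressors that direct SETDB1 to DNA, were the family with the most lower calls. Of 374 regions at 174 such genes (of 438 in the list), 208 were called lower (55.6%) and 0 higher, at 119 genes. Over all 13536 gene-annotated regions 18.8% were lower and 1.06% higher, with a median log2 fold change of -1.28 against -1.85 for the zinc finger regions. At an unadjusted p of 0.05, 317 were lower and 2 higher. Median-ratio scaling called 153 lower and 13 higher, with a median of -1.04, and without the third KO value 343 were lower and 0 higher. Within libraries the zinc finger signal stood at -0.97, -1.05 and -0.39 in KO and 0.31, 0.45 and 0.48 in WT, with no overlap and a difference of -1.22. The third KO value again stood nearest to WT.

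The cluster of such genes on chromosome 10 shows the change over several adjacent genes. At Zfp781 (81755501 to 81761400, gene body) the values were 28.0, 41.0 and 77.3 in KO and 355, 297 and 328 in WT, a log2 fold change of -2.84 (SE 0.37), and all 6 regions with that gene label were called lower. A second region labelled Zfp781, of 32.3 kb (81895401 to 81927700), had 321, 215 and 705 in KO and 1785, 2128 and 2176 in WT (-2.46, SE 0.40). The first was annotated 12692 and the second 18930 bases from the gene start. They lie too far apart to share a start, so that gene label is uncertain. At Zfp433 (81706301 to 81711500) the values were 45.9, 33.1 and 69.8 in KO and 234, 263 and 211 in WT (-2.29, SE 0.32). Gm10778, before both in coordinates (81656101 to 81660100), had 56.0, 44.0 and 71.4 in KO and 296, 257 and 237 in WT (-2.20, SE 0.27). Groups stood apart in all 4 regions, with KO below WT, as in 54.9% of all listed autosomal regions. On chromosome 2, Zfp442 (150419601 to 150427000) had 63.7, 59.7 and 132 in KO and 477, 408 and 398 in WT (-2.41, SE 0.33), with 6 of 7 regions called lower. Genes of such clusters resemble one another closely, and the sources used here do not say where reads matching several copies went, so the value of a single copy is uncertain.

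The clustered protocadherins are adhesion proteins that give each neuron its own surface identity. They had 82 regions at 36 genes, of which 30 were called lower (36.6%) and 0 higher. Over all gene-annotated regions 18.8% were lower and 1.06% higher. The median log2 fold change of the protocadherin regions was -1.31, close to that of all gene-annotated regions, and median-ratio scaling called 12 lower (median -0.50). Signal summed over the family stood further apart than the median region did: -0.72, -1.17 and -0.61 in KO against 0.18, 0.41 and 0.36 in WT, a difference of -1.15 with no overlap. The longest called region of the promoter class from 1 to 3 kb lay at Pcdhga4 (chromosome 18, 37668201 to 37705700). It had 329, 327 and 895 in KO and 1860, 2610 and 2564 in WT (-2.33, SE 0.40).

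The other leading lower regions in genes included Klf14, a zinc finger transcription factor outside the KRAB group (chromosome 6, 30954801 to 30959800, promoter class), with 89.2, 85.4 and 113 in KO and 358, 382 and 502 in WT (-2.09, SE 0.25). AI506816, of no function named here (chromosome 5, 23701601 to 23710500), had 91.7, 133 and 136 in KO and 436, 673 and 934 in WT (-2.45, SE 0.32), with all 3 of its regions called lower. KO and WT did not overlap at either.

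Germline genes, which are silent in somatic cells, had 22 regions at 11 genes, 7 called lower (31.8%) and 0 higher. Over all gene-annotated regions the shares were 18.8% and 1.06%. Median-ratio scaling called 3 of the germline regions lower. Tdrd9, a helicase of the piRNA pathway (chromosome 12, 112018301 to 112023900), had 38.2, 42.3 and 79.8 in KO and 330, 250.97 and 329 in WT, a log2 fold change of -2.55 (SE 0.33). Prdm9, the methyltransferase that sets the sites of meiotic recombination (chromosome 17, 15543201 to 15545800), had 20.4, 29.6 and 67.2 in KO and 129, 181 and 155 in WT (-2.12, SE 0.43). The KO values stayed below the WT values in both.

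Imprinted genes, expressed from 1 parental copy, had 59 regions at 25 genes, 16 called lower (27.1%) and 1 higher (1.7%). Over all gene-annotated regions the shares were 18.8% and 1.06%. Median-ratio scaling called 7 of the imprinted regions lower and 8 higher. Gnas, the stimulatory G protein subunit (chromosome 2, 174297901 to 174300100, promoter class), had 10.2, 14.0 and 17.7 in KO and 121, 96.0 and 79.8 in WT. With the KO values close together and far below WT, its log2 fold change was -2.75 (SE 0.36), or -1.95 after median-ratio scaling. Kcnq1ot1, the long noncoding RNA of the Kcnq1 domain (chromosome 7, 143249001 to 143253900), had 51.0, 41.8 and 82.4 in KO and 225, 255 and 263 in WT (-2.12, SE 0.30), and all 3 of its regions were called lower. Peg13 (chromosome 15, 72808201 to 72810000) had 17.8, 22.7 and 26.0 in KO and 69.1, 97.6 and 81.9 in WT (-1.86, SE 0.32).

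Genes of the H3K9 methylation and repeat-silencing machinery themselves had 17 listed regions at 6 genes, 5 called lower (29.4%) and 0 higher. Over all gene-annotated regions 18.8% were lower and 1.06% higher. Median-ratio scaling called 5 of the 17 lower and 1 higher. Smchd1, a structural protein of silent chromatin (chromosome 17, 71420701 to 71422900), had 7.64, 13.1 and 41.2 in KO and 90.4, 119 and 87.7 in WT (-2.52, SE 0.55). Atf7ip, the partner that stabilises SETDB1, had 2 of 9 regions called lower, the leading one (chromosome 6, 136524201 to 136525800) with 5.09, 13.9 and 34.5 in KO and 81.5, 68.9 and 84.8 in WT (-2.42, SE 0.59). The third KO value was several times the first in both genes, yet below WT. Hox genes, the homeobox genes of the body axis, had 25 regions at 19 genes, all with a fold change below 0. Of these 4 were called lower (16.0%, against 18.8% of all gene-annotated regions), and 0 under median-ratio scaling. Their median log2 fold change of -1.29 was close to the -1.28 of all gene-annotated regions. Hoxd13 (chromosome 2, 74668301 to 74669800) had 17.8, 23.5 and 28.6 in KO and 51.4, 66.4 and 68.9 in WT (-1.39, SE 0.34).

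**Figure D4:**
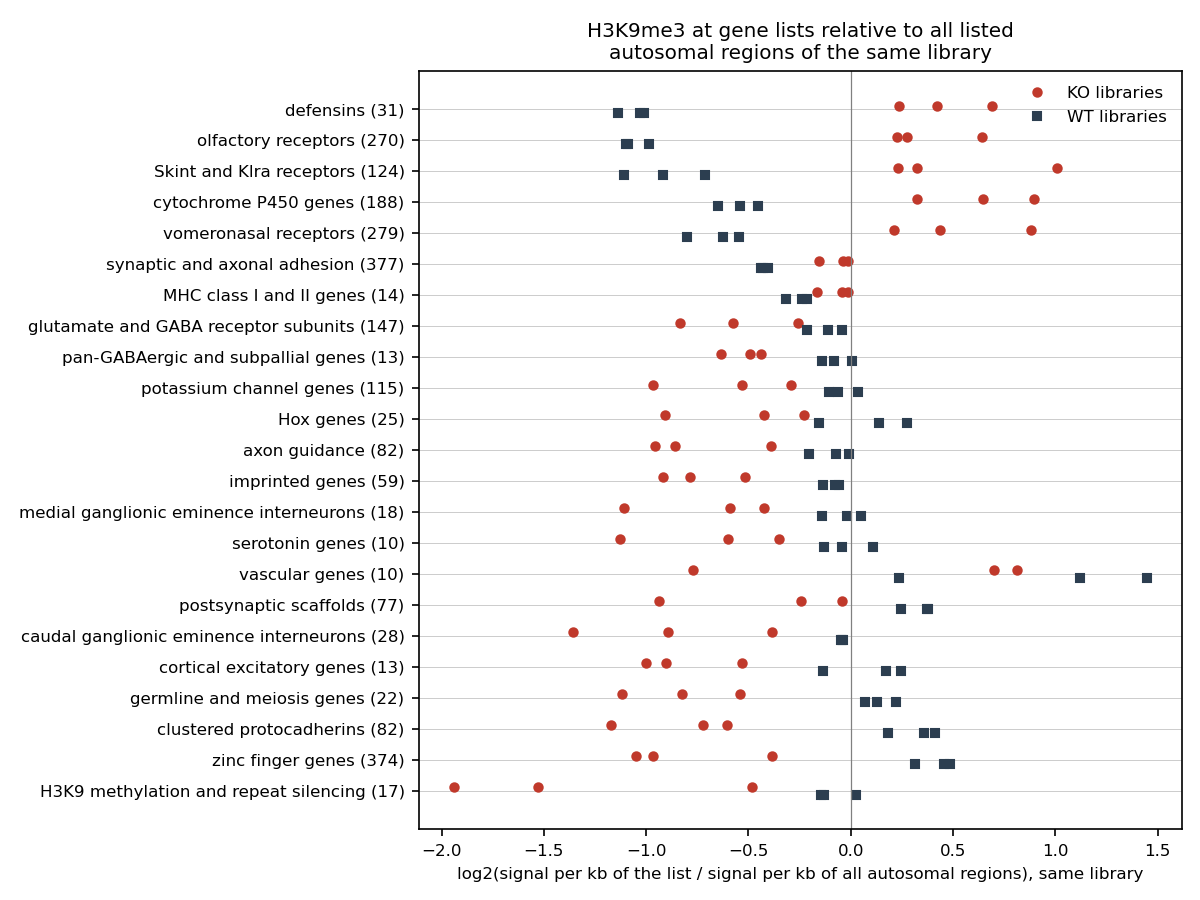
Signal per kb summed over the regions of each gene list, as log2 of its ratio to all listed autosomal regions of the same library, for lists of at least 10 regions (number of regions in parentheses). Red circles are the 3 KO libraries and dark squares the 3 WT libraries; KO lies right of WT for the top 7 lists, left of WT for the others, and the groups overlap for the vascular genes alone.

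Lists of neuronal signalling genes had shares of lower calls near that of all gene-annotated regions. Glutamate and GABA receptor subunits had 147 regions, 31 called lower (21.1%) and 0 higher, against 18.8% of all gene-annotated regions. Potassium channel genes had 18 of 115 lower (15.7%) and 0 higher, postsynaptic scaffolds 16 of 77 (20.8%) and 0, and axon guidance genes 15 of 82 (18.3%) and 0. At an unadjusted p of 0.05 the 4 lists held 10, 4, 0 and 1 higher regions. Within libraries these 4 lists stood lower in KO with no overlap, by -0.432, -0.554, -0.741 and -0.641. By the same measure gene-body regions as a class stood lower by -0.316, also with no overlap. Under median-ratio scaling 17, 10, 5 and 3 of their regions were called lower and 21, 11, 1 and 4 higher.

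Among the scaffolds, Dlg1, which holds channels and receptors at membranes (chromosome 16, 31718301 to 31720200), had 10.2, 10.03 and 28.6 in KO and 106, 98.4 and 66.0 in WT (-2.54, SE 0.46). Magi2 had 5 of 18 regions called lower. Among guidance genes, Ephb1, an ephrin receptor (chromosome 9, 102019201 to 102020900), had 7.64, 9.59 and 16.8 in KO and 63.8, 67.2 and 58.0 in WT (-2.44, SE 0.46). These groups stood far apart.

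Genes of interneuron identity had few listed regions. Marker genes of caudal ganglionic eminence interneurons had 28 regions at 6 of 18 genes, 7 called lower and 0 higher. Those from the medial eminence had 18 regions at 6 of 18 genes, 4 called lower and 0 higher. Over all gene-annotated regions 18.8% were lower and 1.06% higher, so both shares of lower calls lay somewhat above, on few regions. Within libraries the caudal list stood lower in KO by -0.838 and the medial list by -0.672, each with no overlap. By the same measure gene-body regions as a class stood lower by -0.316. Median-ratio scaling called 2 lower and 1 higher in the caudal list and 2 lower and 0 higher in the medial list. Npas3, a transcription factor (chromosome 12, 54067901 to 54069700), had 15.3, 12.2 and 37.8 in KO and 65.6, 135 and 92.8 in WT (-2.22, SE 0.47). Nr2f2, the factor COUP-TFII of the caudal eminence (chromosome 7, 70368601 to 70370300, promoter class), had 22.9, 34.0 and 26.9 in KO and 67.4, 80.4 and 83.4 in WT (-1.44, SE 0.31). The Nr2f2 region did not pass under median-ratio scaling (adjusted p = 0.187 by limma).

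Over all gene-annotated regions limma called 18.8% lower and 1.06% higher. The genes shared by all GABAergic neurons had 13 regions and those of neural stem cells 4, and limma called 0 of either in either direction. At an unadjusted p of 0.05, 10 and 3 of them were lower and 0 higher, and limma-voom called all 13 and all 4 lower. Slc32a1, the vesicular GABA transporter (chromosome 2, 158615501 to 158616600), had 25.5, 13.1 and 16.0 in KO and 42.5, 50.9 and 46.4 in WT, with no overlap but an adjusted p of 0.0514 by limma. Pax6, a progenitor factor (chromosome 2, 105687101 to 105688200), had 10.2, 6.98 and 24.4 in KO and 53.2, 44.3 and 37.7 in WT (adjusted p = 0.0555 by limma). Cortical excitatory genes, which belong to another lineage, had 13 regions at 7 genes, 8 called lower (61.5%) and 0 higher. Median-ratio scaling called 4 of the 13 lower and 1 higher. Fezf2 (chromosome 14, 12340201 to 12344700) had 76.4, 89.8 and 114 in KO and 172, 303 and 386 in WT (-1.55, SE 0.34), and did not pass under median-ratio scaling (-0.72, adjusted p = 0.164 by limma). Vascular genes had 3 of 10 regions called lower (30.0%), and 0 under median-ratio scaling. Serotonin genes, interferon genes and the single microglial and ribosomal genes listed had 0 called of 10, 3, 1 and 1 by limma. At an unadjusted p of 0.05 limma gave 8, 3, 1 and 1 of these as lower, and limma-voom called 9, 3, 1 and 1 lower. The keratin list had 1 of 4 called lower and the MHC genes 2 of 14 lower and 1 higher. The glial and p53 target lists had no listed region.

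Synaptic and axonal adhesion genes were split. Of 377 regions at 34 genes, 35 were called lower (9.28%) and 14 higher (3.71%). Over all gene-annotated regions the shares were 18.8% and 1.06%. Of the 377, 191 had a fold change below 0 and 186 above, and median-ratio scaling moved the median from -0.62 to 0.19. Relative to all listed autosomal regions of the same library, the list stood higher in KO by 0.356, with no overlap. Cntnap5a and Cntnap5c alone held 84 and 55 of the 377 regions. Tenm4, a teneurin that connects synapses, had 6 of 25 regions called lower, the leading one (chromosome 7, 96634201 to 96635800) with 20.4, 17.9 and 19.3 in KO and 62.0, 61.5 and 73.2 in WT (-1.72, SE 0.32). That region did not pass under median-ratio scaling (-0.91, adjusted p = 0.0706 by limma).

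The Cntnap5 genes, contactin-associated proteins of the same list, went the other way. Cntnap5a had 8 of its 84 regions called higher, the most of any gene. Its leading region (chromosome 1, 116560001 to 116561900, gene body) had 86.6, 80.7 and 83.2 in KO and 24.8, 41.0 and 21.8 in WT. All 3 KO values lay close together and above WT, and the log2 fold change was 1.54 (SE 0.33). Cntnap5c had 3 of 55 regions called higher (leading region, chromosome 17, 57798201 to 57800600: 99.3, 105 and 121 in KO and 40.8, 58.2 and 56.5 in WT; 1.06, SE 0.28). Dpp10, an auxiliary subunit of A-type potassium channels that lies on the same chromosome as Cntnap5a, had 2 of 38 called higher, the leading one (chromosome 1, 123475801 to 123477600) with 71.3, 51.9 and 79.8 in KO and 26.6, 17.2 and 21.8 in WT (1.59, SE 0.35).

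**Figure D5:**
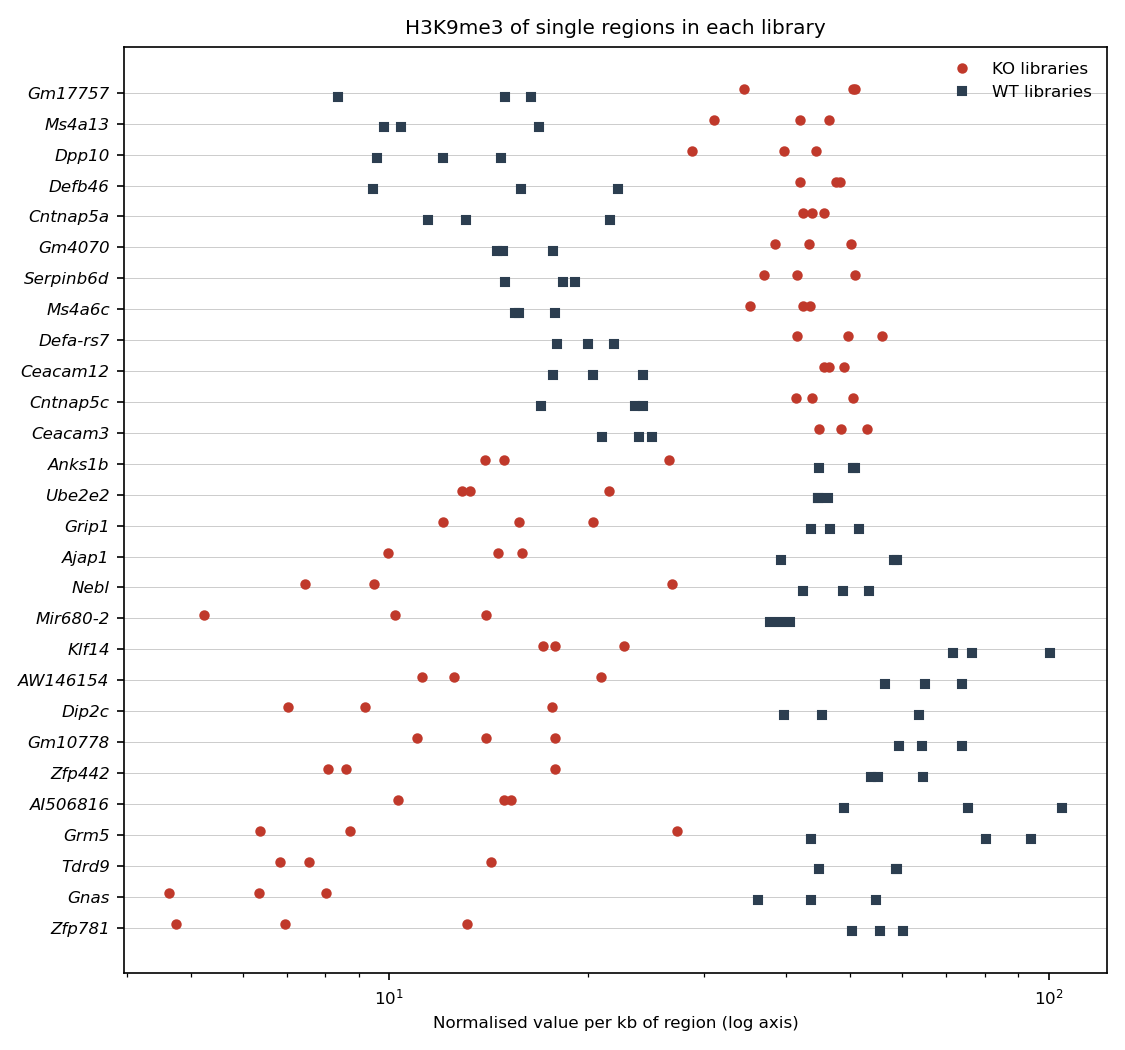
Normalised value per kb of the leading region of the genes with the most called regions or the largest test statistic, in each library, on a log axis. Red circles are KO and dark squares WT. The top 12 genes lie higher in KO and the bottom 16 lie lower. No gene's groups overlap, but these regions were chosen by their test results.

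Listed regions at chemosensory, immune and detoxification gene clusters were mostly higher in KO, although few of them passed. Over all gene-annotated regions limma called 1.06% higher and 18.8% lower. Olfactory receptors had 270 regions at 242 of 1420 genes, 256 with a fold change above 0 (median 0.94, or 1.74 after median-ratio scaling), 19 called higher (7.04%) and 1 lower. Vomeronasal receptors had 279 regions (median 0.77), 6 called higher (2.15%) and 5 lower (1.79%). Skint genes and the Klra receptor genes of natural killer cells had 124 regions (median 0.85), 5 called higher (4.03%) and 0 lower. Defensins, antimicrobial peptides, had 31 regions (median 0.92), 6 higher (19.4%) and 0 lower. Cytochrome P450 genes had 188 regions (median 0.73), 7 higher (3.72%) and 5 lower (2.66%). Without the third KO value 61, 62, 33, 10 and 43 regions of these 5 lists were called higher, and limma-voom called 136, 128, 63, 15 and 84.

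These gene families stood apart within libraries too. The olfactory receptor signal was at 0.64, 0.28 and 0.22 in KO and -1.09, -1.10 and -0.98 in WT, a difference of 1.44 with no overlap. Vomeronasal receptors differed by 1.17, Skint and Klra genes by 1.43, defensins by 1.51 and P450 genes by 1.17, each with no overlap. The first KO value, the shallowest, was the highest in all 5 families, and the part of its depth in this was not tested. A listed region of these families had to be high in KO if it was low in WT, as above, so the share of regions above 0 describes the listed members only.

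Single members show the size of the change. Olfr119 (chromosome 17, 37698501 to 37700400, promoter class) had 79.0, 61.5 and 85.7 in KO and 28.4, 33.6 and 26.1 in WT (1.32, SE 0.31). Olfr212 was the single olfactory receptor region called lower (chromosome 6, 116501701 to 116505500), with 15.3, 37.1 and 80.7 in KO and 184, 176 and 210 in WT (-2.37, SE 0.52). Defb46, a beta-defensin (chromosome 8, 19237601 to 19239100), had 71.3, 72.4 and 63.0 in KO and 14.2, 23.8 and 33.4 in WT (1.57, SE 0.38). Groups did not overlap in these 3.

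The vomeronasal gene Vmn2r29 fell at 2 of its 5 regions, one of them the promoter printed above (chromosome 7, 7277101 to 7279100), with 86.6, 54.5 and 54.6 in KO and 213, 118 and 141 in WT (-1.25, or -0.42 after median-ratio scaling, where it did not pass). Vmn2r32, of the same family and chromosome (7481801 to 7483600), rose, with 102, 92.4 and 74.8 in KO and 33.7, 45.1 and 40.6 in WT (1.15, SE 0.29). Among P450 genes, Cyp7b1, which makes oxysterols into bile acid precursors (chromosome 3, 18195901 to 18197300), fell from 85.1, 73.8 and 52.2 in WT to 7.64, 10.03 and 23.5 in KO (-2.40, SE 0.49). Cyp2b10, a drug-metabolising enzyme of the liver (chromosome 7, 25924401 to 25928600), rose from 76.2, 89.4 and 85.5 to 150, 192 and 211 (1.12, SE 0.25). Klra15, a natural killer cell receptor (chromosome 6, 130315001 to 130316000), had 79.0, 36.2 and 43.7 in KO and 10.6, 13.1 and 18.1 in WT (1.80, SE 0.49), and did not pass limma-voom (adjusted p = 0.058). Near-identical copies make the value of single members of these families uncertain.

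Other leading regions called higher lay at genes of cell-surface and protease-inhibitor families. They were at Ms4a13 and Ms4a6c, membrane proteins, Ceacam3 and Ceacam12, adhesion molecules of the immunoglobulin superfamily, and Serpinb6d, a serine protease inhibitor. Ceacam3 (chromosome 7, 17152201 to 17156200) had 194, 180 and 212 in KO and 95.7, 100.1 and 84.1 in WT (1.06, SE 0.24). Ms4a13 (chromosome 19, 11176901 to 11178600) had 79.0, 52.8 and 71.4 in KO and 17.7, 28.7 and 16.7 in WT (1.66, SE 0.36). Each of these leading regions also passed under median-ratio scaling and by limma-voom.

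The promoters inside called regions were also counted for CpG content, 1 value per gene (the median over its starts), since some genes have many near-identical starts. Of 25748 genes with an autosomal RefSeq promoter, 38.9% held 10 or more CpG in the 250 bases before the start, with a median of 6. The 119 genes with a promoter inside a called lower region had a median of 5, and 23.5% held 10 or more. The 17 inside called higher regions had a median of 1, and 0 of 17 held 10 or more. Over all listed regions the 331 genes in regions with a fold change below 0 had a median of 4 (20.54% with 10 or more), and the 252 in regions with a fold change above 0 a median of 1 (0.794%). Counted by start instead, 31.0% of 145 promoters inside called lower regions held 10 or more. Members of a gene family or cluster are not independent in either direction, and no test was made.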

How the data were processed

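H3K9me3 libraries were prepared by native ChIP-seq with 100000 nuclei each, per the labels. Bowtie2 2.3.4.3, MACS2 and build mm10 are named in the submitters' processing notes. The sources used here do not give how the authors scaled the libraries, joined windows of 1000 bases into regions and chose the listed ones. The authors' table holds group means as a normalised signal, log2 fold changes and p-values, per the file headers. By the authors' deposited fold changes, 33827 autosomal regions had a log2 fold change below 0 and 14122 above. Each joined cell was split into 3 normalised values at its semicolons, and Treatment was read as KO because the authors named the comparison KO against WT, and their fold changes follow Treatment over Control.

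Each listed position held whole multiples of 1 step (100.0% of low values within 0.1 reads), which gave recovered reads over all listed regions of 11.0, 36.4 and 13.7 M for KO, with 15.9, 19.6 and 28.4 M for WT. The test was limma 3.58.1 in R 4.3.3, applied to log2(normalised value + 1). It used a trend of variance with mean and no covariate, and was two-sided with Benjamini-Hochberg adjusted p at 0.05 over all 50654 regions. Fold changes are on that log2 scale and understate low regions. The joined cells could not be handled as counts, so the count-based alternative was limma-voom on recovered reads. For single values per library, exact permutation tests over the 6 libraries were used (smallest p 0.1). The script was tested on simulated data. Python 3.11.15 with pandas 2.3.3 was used for summaries.

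The members and the 30 gene lists were chosen with earlier results of these data known. Named regions were those of Setdb1, the 10 genes with the most lower and the 8 with the most higher calls, the 8 leading gene regions in each direction that passed 3 fits, the longest called region of each class, and up to 3 members per list. The H3K27ac peak lists, 1 per library, served only for marker positions. Alternatives covered the pseudocount, scaling, filter, variance model, test, threshold and each left-out value. Limma-voom with a value left out was added after seeing the data.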

Additional observations from a re-analysis of the deposited data

How the results depend on the processing

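Regions called lower by limma with Benjamini-Hochberg adjustment (7297) became 16207 with a pseudocount of 5, 3001 after median-ratio scaling, 28013 with limma-voom, 27345 at a threshold of 0.1, and 0 at a threshold of 0.01 or without the variance trend (22524 at an unadjusted p of 0.05). Regions called higher (622) became 2129, 13679, 6913, 8086, 0 and 0 (5879) under the same settings, and 980 when chromosomes 1 to 19 were fitted alone. Leaving out 1 listed value gave 0 to 29805 lower and 0 to 2944 higher, with the upper ends both without the third KO value. Limma-voom with 1 value left out gave 6622 to 28631 lower and 2042 to 8581 higher. The pseudocount of 0.5, the filter and robust moderation moved both counts by less than 1.5 times. Of 98 named regions that passed, 29 did not pass after median-ratio scaling, and none of the 98 passed when any value but the third KO value was left out of limma. With limma-voom 1 of the 98 did not pass, or 0 to 11 with 1 value left out. None of the 115 named regions changed sign under any setting. The within-library difference of regions of 1.6 to 2.0 kb (0.00785, groups overlapping) ranged from -0.0113 without the third KO value to 0.0238 without the first. No paired analysis was possible because the joined cells do not say which animal a value belongs to. Depth limits the first KO value most (median of 10 reads per region). The cause of these differences was not tested.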
